A study of Mus musculus with 6 samples.

Results

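The semaphorin, plexin, neuropilin, Eph receptor and ephrin genes encode ligands and receptors that guide cells and axons, and their transcripts were followed in embryonic stem cells with altered THAP1. The set was taken from the gene symbols alone: semaphorins of classes 3 to 7, plexins A to D, the neuropilins, the EphA and EphB receptors and the ephrins. Of 19713 genes in the table, 53 carry such a symbol, and 48 of them were among the 15287 genes that reached a normalized count of 10 or more in at least 2 of the 6 libraries. These 48 are 18 of 20 semaphorins, 9 of 9 plexins, 2 of 2 neuropilins, 6 of 9 EphA receptors, 5 of 5 EphB receptors, 5 of 5 ephrin-A genes and 3 of 3 ephrin-B genes.

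RNA was sequenced from mouse embryonic stem cells in 3 groups of 2 libraries each. Knockout cells (KO) lack THAP1 through removal of exon 2 of Thap1, C54Y cells are homozygous for a missense change that puts tyrosine in place of a cysteine in the zinc-coordinating DNA-binding domain of THAP1, and wild-type cells (WT) carry the normal gene. All 3 come from C57Bl/6 blastocysts and were grown on gelatin-coated plastic with a feeder layer of irradiated mouse embryonic fibroblasts, in medium with fetal calf serum and leukemia inhibitory factor, so feeder RNA can be present in every library. The labels number the libraries of a genotype 1 and 2 without saying whether they came from separate cultures or clones. In the main fit, p-values rest only on the spread left after genotype and replicate number, pooled over the 3 genotypes. That spread may be technical.

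Ephrins are ligands held at the cell surface, the A class by a lipid anchor and the B class by a transmembrane segment, and they signal on contact to Eph receptor tyrosine kinases while also sending a reverse signal into the cell that carries them. Semaphorins are secreted (class 3), transmembrane (classes 4 to 6) or lipid-anchored (class 7) ligands of plexins, which act on small GTPases and so on the cytoskeleton and adhesion, and most class 3 semaphorins need a neuropilin as co-receptor. In embryonic tissue these systems steer axons, vessels and migrating cells and keep cell populations apart. THAP1 is a transcription factor that binds DNA through its zinc-dependent THAP domain, and mutations in human THAP1 cause the movement disorder DYT6 dystonia.

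The libraries held 31774656 to 46772996 reads, recovered from the deposited normalized counts as described under the processing, and transcripts of the 53 genes made up 0.0872% to 0.168% of them. Libraries of the same replicate number resembled each other: their deviations from the genotype means correlated across genes at 0.895 between KO and C54Y, 0.869 between KO and WT and 0.907 between C54Y and WT. Between the replicates of a genotype, 42.8% of tested genes in KO, 37.6% in C54Y and 37.2% in WT differed by more than 2-fold, and Rn45s, the precursor of ribosomal RNA, made up 1.49% to 2.05% of reads in replicate 2 against 0.472% to 0.600% in replicate 1. Genotypes were therefore compared within each replicate number, with the number as a block in limma over all tested genes and Benjamini-Hochberg adjustment, and a gene is said to have risen or fallen where its adjusted p lay under 0.05. Without that block, limma called 0 of the 15287 genes in each of the 3 comparisons. Thap1 had 1975 and 1687 normalized counts in KO, 2253 and 2533 in C54Y, and 433 and 701 in WT. Both mutants were above WT (1.72 ± 0.22 on the log2 scale for KO, adjusted p = 0.0018, and 2.11 ± 0.22 for C54Y, adjusted p = 0.00301, limma), but reads summed over the gene do not show whether exon 2 is missing or the codon is changed.

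Levels differed widely within the families. Normalized counts were divided by exon length in kilobases (GENCODE M21 exons, since the annotation used for counting is not given in the sources used here), and levels between genes are compared only on this scale. The EphA receptor gene Epha2 was the most abundant, with a mean of 2081 per kb in KO, 1557 in C54Y and 2249 in WT, and its lowest library (1446) lay above the highest library of every other gene of the set. Plxnb2 (597 to 1006 per kb over the 6 libraries), Plxna1 (447 to 952), Sema4b (533 to 961) and Efna4 (335 to 623) followed with overlapping ranges. The order of the genes was not the same in every genotype. Sema6a was the 36th of the 53 in KO with 13.9 per kb, against the 11th in WT with 169, and Sema5b was the 17th in KO with 77.2, against the 37th in WT with 20.1. Epha3, Epha5, Epha6, Sema3d and Sema3g did not pass the filter, with a second-highest library of 6.80, 2.72, 1.74, 7.48 and 8.96 normalized counts in that order. Just inside it stood Sema6d (12.2), Plxnb3 (12.7, which passed only through KO) and Ephb1 (18.0, which passed only through WT).

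**Figure D1:**
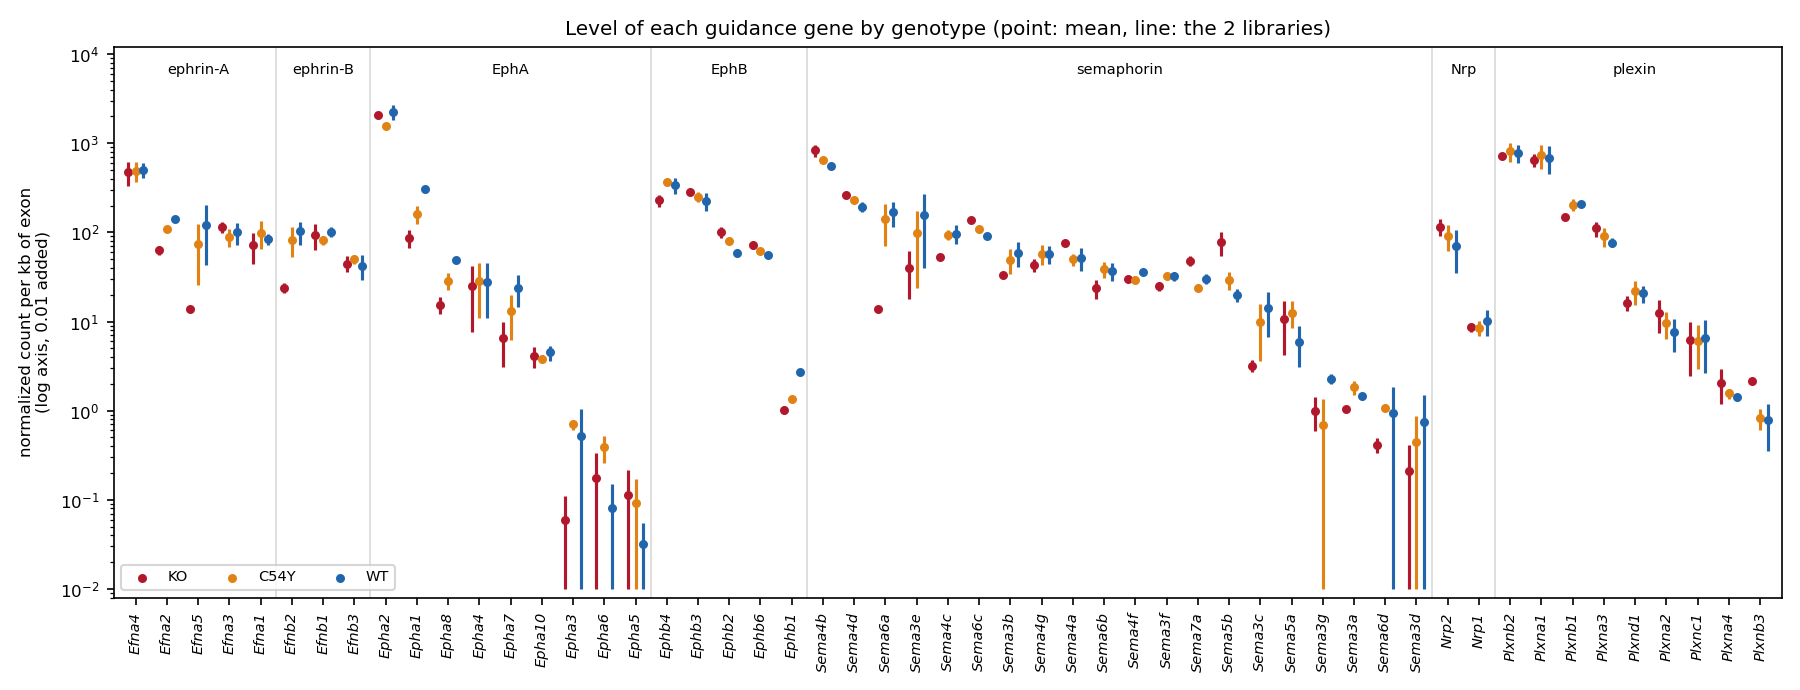
Normalized count per kilobase of exon (log axis, 0.01 added) for the 53 guidance genes by role. Points are genotype means and lines span the 2 libraries (KO red, C54Y orange, WT blue). Epha2 stands highest in all genotypes, and the means of Sema6a, Efna5 and Efnb2 sit far lower in KO than in the other genotypes. For Efna5, C54Y replicate 2 (25.8 per kb) lies much nearer to the KO libraries (14.6 and 13.3) than C54Y replicate 1 (124) does.

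The KO against WT comparison asks which guidance transcripts differ in cells lacking THAP1. Of the 48 tested genes 13 (27.1%) passed, against 16.3% of all tested genes: 9 fell (18.8%, against 7.41% of all genes) and 4 rose (8.33%, against 8.9%). The genes that fell were 3 ephrins (Efna2, Efna5, Efnb2), 3 EphA receptors (Epha1, Epha7, Epha8) and 3 semaphorins (Sema3c, Sema3e, Sema6a), and the genes that rose were Sema4b, Sema5b, Ephb2 and Nrp2. The members were chosen with earlier results of these data known, so the counts are a description. The median log2 difference of the 48 genes was -0.16, against 0.03 over all tested genes. It was -0.29 within replicate 1 (0.12 over all genes) but -0.01 within replicate 2 (-0.02 over all genes). With edgeR on the recovered reads 11 fell (8.78% of all genes) and 1 rose (7.1% of all genes), with DESeq2 10 fell (7.6% of all genes) and 4 rose (8.9%), and without KO replicate 2 limma called 21.

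By size alone, 10 genes were lower in KO by more than 2-fold within both replicates (20.8%, against 4.28% of all tested genes) and 1, Sema5b, was higher by that much in both (2.08%, against 4.58%). The 2 KO libraries lay below both WT libraries in 16 of the 48 genes (33.3%, against 13.6% of all genes) and above both in 10 (20.8%, against 13.6%). Ephb1 and Plxnb3 passed the filter through 1 genotype alone and so had to differ. Without genes of that kind, a choice made after seeing the data, 46 of the set and 15215 genes in all remained. Of the 46, 9 were lower by more than 2-fold in both replicates (19.6%, against 4.17% of all 15215), and the KO libraries lay below both WT libraries in 15 (32.6%, against 13.4%) and above both in 9 (19.6%, against 13.4%). In such bulk samples, fewer cells of a type and less RNA per cell cannot be told apart.

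**Figure D2:**
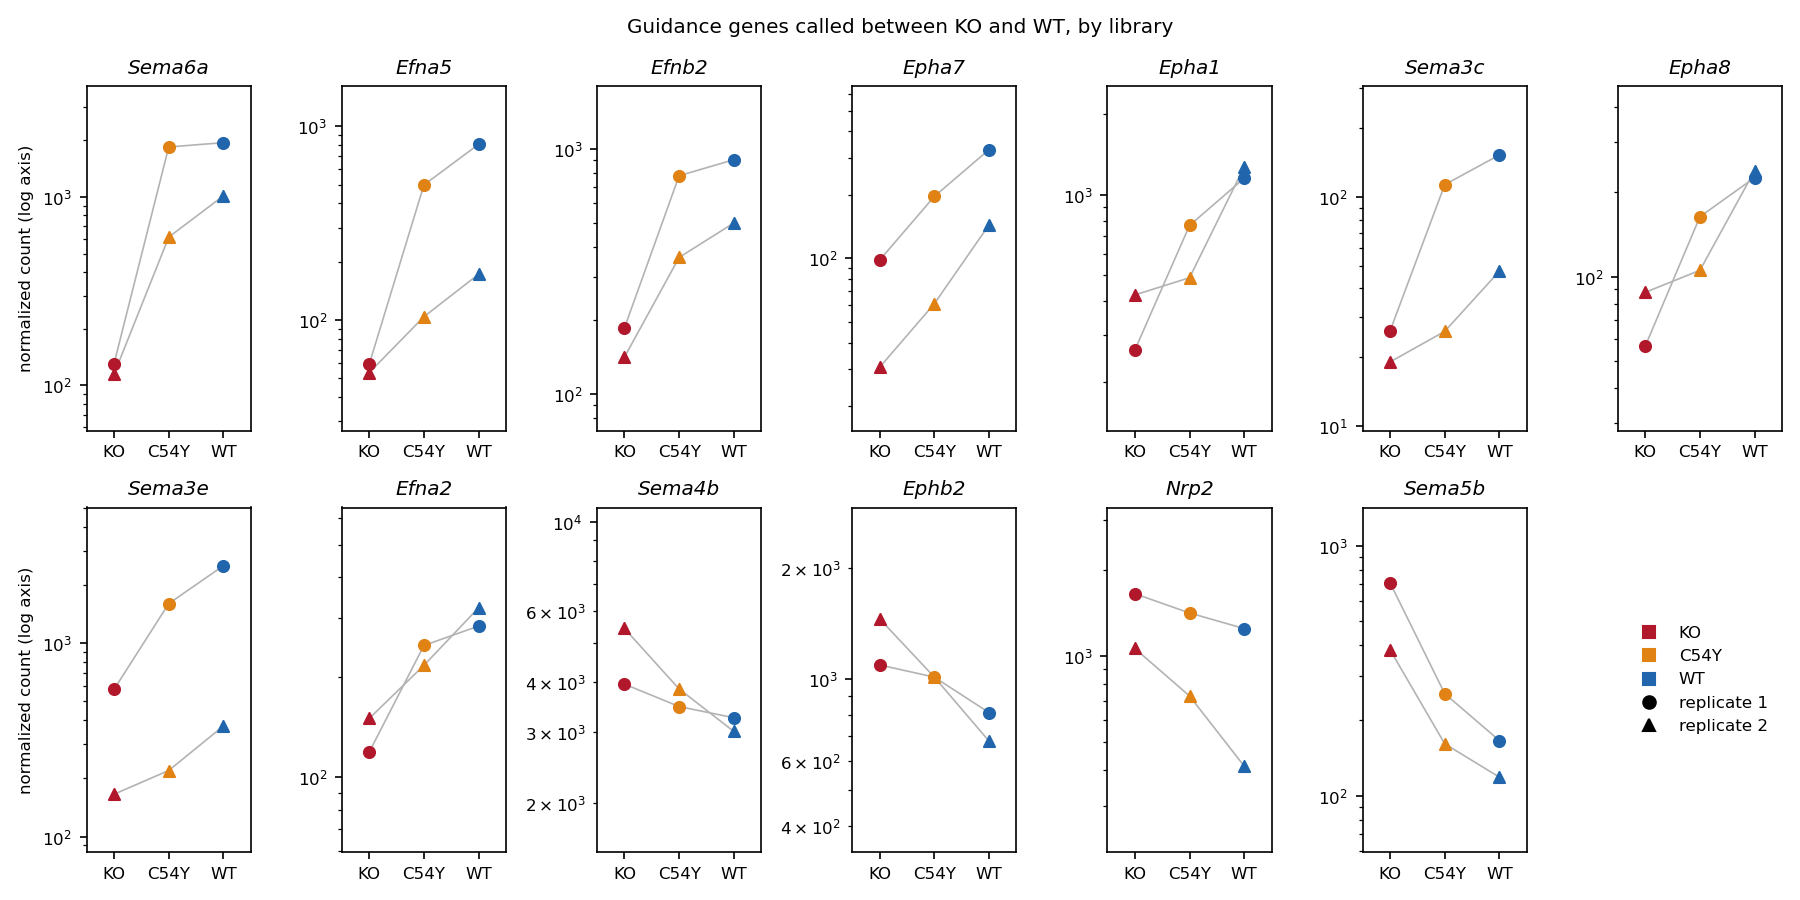
Normalized counts (log axis) of the 13 guidance genes called between KO and WT, by library. Circles are replicate 1 and triangles replicate 2, and grey lines join libraries of the same replicate number. For Sema6a the KO libraries sit at 130.3 and 115, while C54Y and WT libraries lie between 613 and 1947.

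Sequences of 3 promoters are given for genes that changed in opposite directions, each from 250 bases before the start site to 50 bases beyond it on the gene's own strand (RefSeq, GRCm38.p6). Efnb2 lies at chr8:8661193-8661492 on the minus strand, Efna5 at chr17:62881268-62881567 on the minus strand and Sema5b at chr16:35541112-35541411 on the plus strand. Efnb2 and Efna5 were among the genes that fell most in KO, and Sema5b was the gene that rose most. Capitals mark a match to TNNGGGCA, the consensus described for the human THAP1 protein, read on either strand:
Efnb2: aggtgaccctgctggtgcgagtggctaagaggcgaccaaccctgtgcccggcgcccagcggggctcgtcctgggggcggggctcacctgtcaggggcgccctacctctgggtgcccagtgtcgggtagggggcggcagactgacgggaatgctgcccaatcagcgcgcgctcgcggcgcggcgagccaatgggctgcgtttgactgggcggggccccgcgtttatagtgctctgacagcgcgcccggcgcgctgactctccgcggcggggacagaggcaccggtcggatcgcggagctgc
Efna5: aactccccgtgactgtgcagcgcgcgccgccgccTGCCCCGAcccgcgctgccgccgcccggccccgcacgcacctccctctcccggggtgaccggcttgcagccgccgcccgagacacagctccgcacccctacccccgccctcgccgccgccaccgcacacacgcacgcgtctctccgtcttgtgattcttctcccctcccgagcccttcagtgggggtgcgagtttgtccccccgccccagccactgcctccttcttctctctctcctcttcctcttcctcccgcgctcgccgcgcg
Sema5b: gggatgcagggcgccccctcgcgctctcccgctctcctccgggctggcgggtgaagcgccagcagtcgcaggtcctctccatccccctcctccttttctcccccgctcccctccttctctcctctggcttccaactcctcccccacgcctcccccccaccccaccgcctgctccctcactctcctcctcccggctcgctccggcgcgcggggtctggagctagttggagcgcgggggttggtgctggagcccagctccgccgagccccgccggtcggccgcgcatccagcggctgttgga

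The Efna5 promoter holds 1 match, which begins 216 bases before the start site, and those of Efnb2 and Sema5b hold none in this window. These promoters are rich in CpG, with 35 in that of Efnb2, 38 in that of Efna5 and 27 in that of Sema5b, against a median of 7 over 32851 mouse promoters of the same length. Of 56 promoters of 42 tested guidance genes 9 held the motif (16.1%), against 13.9% of all promoters. It was in 1 of 14 promoters of the called genes (7.14%, 12 of the 13 genes, Sema6a not among them) and in 8 of 42 of the genes not called (19.0%). A match is only a run of letters, and these data do not measure THAP1 binding. The median number of CpG was 28 in the 14 promoters of the called genes and 16 in the 42 promoters of 30 genes not called. In these shares and medians a gene with several promoters counts once for each.

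Among the ephrin-A ligands, Efna5 and Efna2 fell and 3 others did not pass (7.41% of all tested genes fell). Efna5, a ligand of EphA receptors that can also bind Ephb2, had 59.1 and 53.5 normalized counts in KO, 498 and 104 in C54Y, and 808 and 172 in WT. Both KO libraries lay below all 4 others, while in C54Y and WT replicate 1 was far above replicate 2. The difference of -2.69 ± 0.47 between KO and WT (log2 ± SE, 6.46-fold lower, limma adjusted p = 0.00693) came to -3.73 within replicate 1 and -1.65 within replicate 2. It was -1.65 without KO replicate 1 and -3.74 without KO replicate 2. Efna2, another ligand of EphA receptors, had 119 and 150.2 in KO, 249 and 217 in C54Y, and 285 and 323 in WT. KO was lowest in both replicates and the groups did not overlap, with -1.17 ± 0.24 between KO and WT (2.25-fold lower, limma adjusted p = 0.0142), and the call was lost without WT replicate 2 (adjusted p = 0.0605). Efna4, the most abundant ephrin per length, had 536 and 997 in KO, 588 and 972 in C54Y, and 651 and 957 in WT, so genotypes overlapped and the replicates differed more than they did (KO minus WT -0.11, 95% interval -0.51 to 0.29). Efna1 (-0.33, -0.97 to 0.31) and Efna3 (0.23, -0.30 to 0.76), of the same class, had overlapping groups as well.

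Of the 3 tested ephrin-B ligands only Efnb2 passed (16.3% of all tested genes passed). This transmembrane ligand of EphB receptors and of Epha4, best known from arterial endothelium, had 186 and 141 normalized counts in KO, 779 and 361 in C54Y, and 905 and 499 in WT. Both KO libraries lay below the lowest library of the other genotypes. The difference between KO and WT was -2.04 ± 0.23 (4.11-fold lower, limma adjusted p = 0.00121), with -2.27 within replicate 1 and -1.81 within replicate 2. Efnb1 (-0.19, 95% interval -0.88 to 0.50) and Efnb3 (0.12, -0.48 to 0.73), the other transmembrane ephrins, did not pass.

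Of the 6 tested EphA receptors 3 fell in KO (7.41% of all tested genes fell). Epha1, the founding member of the Eph receptor family, had 263 and 423 normalized counts in KO, 767 and 489.7 in C54Y, and 1151 and 1269 in WT. The libraries of the 3 genotypes did not overlap, with KO lowest, C54Y between and WT highest, and KO differed from WT by -1.85 ± 0.28 (3.61-fold lower, limma adjusted p = 0.00404). Epha7, which has a truncated isoform that promotes adhesion, had 98.2 and 30.5 in KO, 197 and 61.1 in C54Y, and 327 and 144 in WT. Within each replicate KO was lowest and WT highest, and KO fell by 1.94 ± 0.28 on the log2 scale (3.84-fold, limma adjusted p = 0.0029). Epha8, a receptor of ephrin-A ligands known from midbrain axons, had 56.5 and 87.8 in KO, 163 and 105 in C54Y, and 225 and 238 in WT. Its groups did not overlap either, and it differed by -1.69 ± 0.33 (3.22-fold lower, limma adjusted p = 0.0105).

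The other 3 EphA receptors did not pass. Epha2, which was the most abundant gene of the set, had 10588 and 8867 normalized counts in KO, 7798 and 6760.1 in C54Y, and 8609.8 and 12418 in WT, with both KO libraries between the WT libraries (-0.09, 95% interval -0.53 to 0.34). Epha4, a receptor of ephrins of both classes, differed by -0.31 (-0.88 to 0.26) and Epha10, whose kinase domain is inactive, by -0.15 (-1.09 to 0.79). In the gene annotation, exons of Epha1 share 236 bases with Zyx on the opposite strand, and the strand setting of the counting is not given. Zyx averaged 1560.2 normalized counts in KO, 2193 in C54Y and 2951 in WT and did not pass (-1.42 ± 0.43, limma adjusted p = 0.0696); the part of its reads in Epha1 was not tested. The other 12 called genes share no exon bases with a gene on the opposite strand.

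Of the 5 tested EphB receptors, which bind the ephrin-B ligands, 0 were called lower in KO (7.41% of all tested genes fell). Ephb2 had 1092 and 1455 normalized counts in KO, 1012 and 1012 in C54Y, and 811 and 679 in WT. KO was highest in both replicates, and the rise of 0.76 ± 0.20 (1.70-fold, limma adjusted p = 0.0301) did not hold with TMM scaling (adjusted p = 0.0536), with edgeR (0.0536) or without WT replicate 2 (0.297). Ephb3 had 1797 and 1939 in KO, 1906 and 1445 in C54Y, and 1823 and 1149 in WT, with overlapping groups (0.37, 95% interval -0.08 to 0.81). Ephb1 was the single gene that was lower by more than 2-fold within both replicates and did not pass: it had 7.82 and 6.36 in KO, 9.52 and 9.09 in C54Y, and 19.4 and 18.0 in WT (-1.19, limma adjusted p = 0.107), values near the filter. Ephb4, the receptor paired with Efnb2 in vessels, had 896 and 1221 normalized counts in KO, 1901 and 1528 in C54Y, and 1888 and 1262 in WT, lower in both KO libraries without passing (-0.56, limma adjusted p = 0.14), and Ephb6, which lacks kinase activity, differed by 0.37 (adjusted p = 0.317).

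Among the semaphorins, the transmembrane gene Sema6a had the largest difference of the whole set. Its protein binds the plexins encoded by Plxna2 and Plxna4 and can also act as a receptor in the cell that carries it. Sema6a had 130.3 and 115 normalized counts in KO, 1847 and 613 in C54Y, and 1947 and 1017 in WT, which correspond to 150 and 90 reads in KO, 2717 and 472 in C54Y, and 2607 and 790 in WT. Both KO libraries lay far below all 4 others, and C54Y lay below WT by a little in replicate 1 and by more in replicate 2. KO differed from WT by -3.50 ± 0.30 (11.3-fold lower, limma adjusted p = 0.000374), with -3.88 within replicate 1 and -3.13 within replicate 2. Leaving out any 1 library gave -2.96 to -4.04.

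The secreted class 3 semaphorins included 2 more genes that fell. Sema3e, which signals through Plxnd1 without a neuropilin, had 577 and 165 normalized counts in KO, 1603 and 219.5 in C54Y, and 2519.6 and 373 in WT. KO was lowest within each replicate, while replicate 2 was much lower than replicate 1 in every genotype and the groups overlapped (-1.64 ± 0.27, 3.12-fold lower, limma adjusted p = 0.00524). Sema3c, which acts through neuropilins and is known from heart outflow tract development, had 26.1 and 19.1 in KO, 114 and 26.0 in C54Y, and 153 and 47.6 in WT. KO was again lowest in both replicates (-1.85 ± 0.42, 3.61-fold lower, limma adjusted p = 0.0203), and the difference was -1.13 without KO replicate 1. Sema3a (-0.41), Sema3b (-0.76, limma adjusted p = 0.0896) and Sema3f (-0.37), which use neuropilins as co-receptors, did not pass.

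Sema5b and Sema4b rose. Sema5b, a transmembrane semaphorin with thrombospondin repeats, had 711 and 383 normalized counts in KO, 256 and 161 in C54Y, and 166 and 118 in WT. Both KO libraries were above all others, and the rise was 1.88 ± 0.23 (3.69-fold, limma adjusted p = 0.00163), with 2.09 within replicate 1 and 1.68 within replicate 2. Sema4b, the most abundant semaphorin, had 3945 and 5426 in KO, 3468 and 3836 in C54Y, and 3253 and 3007 in WT. Its groups did not overlap, but the rise of 0.56 ± 0.17 (1.48-fold) lay close to the threshold (limma adjusted p = 0.0486). It was lost with TMM scaling (0.0949), with edgeR (0.0982) and, among the libraries left out in turn, without WT replicate 2 (0.445), KO replicate 2 (0.0628) or either C54Y library (0.0687 and 0.0879).

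Other class 4 to 7 semaphorins did not pass. Sema4c, a ligand of Plxnb2, had 228 and 261 normalized counts in KO, 483 and 375 in C54Y, and 549 and 337 in WT. KO lay below both other groups, with -0.81 ± 0.25 against WT and a limma adjusted p of 0.0602, which became 0.0475 with TMM scaling and 0.0247 with DESeq2. Sema6c (0.58, limma adjusted p = 0.0727), Sema4a (0.62, 0.107), Sema4d (0.43, 0.115), the ligand of Plxnb1, and Sema7a (0.66, 0.142), the ligand of Plxnc1, had higher values in both KO libraries than in both WT libraries without passing. The rest were Sema4f (-0.24), Sema4g (-0.40), Sema5a (0.68), Sema6b (-0.64) and Sema6d (-0.07), with limma adjusted p-values of 0.157 to 0.968. Sema6d had 3.47 and 5.09 normalized counts in KO, 12.2 and 10.4 in C54Y, and 19.4 and 0 in WT, so its WT libraries stood on either side of the others.

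On the receptor side of the semaphorins, 0 of the 9 plexins passed between KO and WT with limma (16.3% of all tested genes passed). An unadjusted p under 0.05 was seen for 3 (Plxna2, Plxna3 and Plxnb1, against 31.1% of all tested genes). With edgeR 1 was called, Plxnb1, which was lower (8.78% of all genes were called lower). DESeq2, which called 16.5% of all genes, called 0. Plxna1, a receptor of class 3 semaphorins with neuropilins and of class 6 members, had 6802 and 4909 normalized counts in KO, 8618 and 4623 in C54Y, and 8327 and 4044 in WT. The replicates differed and the genotypes overlapped (-0.01, 95% interval -0.37 to 0.36). Plxnb2, the most abundant plexin per length, had 5913 and 5275 in KO, 7769 and 4773 in C54Y, and 7454 and 4611 in WT, with overlapping groups (-0.07, -0.44 to 0.30). Plxnb1 had 1484 and 1349 in KO, 2245 and 1658 in C54Y, and 2154 and 1834 in WT (-0.49, limma adjusted p = 0.0629, 0.0373 with TMM scaling). Plxna3 differed by 0.51 (0.0894) and Plxnc1 by -0.08 (0.898). Plxna2 (0.70, 0.0886) and Plxna4 (0.37, 0.629), the plexins that bind SEMA6A, and Plxnd1 (-0.35, 0.555), the receptor of SEMA3E, did not pass. Plxnb3 had 14.8 and 12.7 in KO, 6.80 and 3.90 in C54Y, and 2.24 and 7.72 in WT and did not pass (1.29, 0.171). The co-receptor Nrp2 had 1652 and 1064 in KO, 1416 and 726 in C54Y, and 1248 and 413 in WT. It was highest in KO within each replicate, but the groups overlapped, and the rise of 0.88 ± 0.23 (1.84-fold, limma adjusted p = 0.031) was lost with TMM scaling (0.0524), edgeR (0.0568) and without WT replicate 2 (0.34). Nrp1, the other neuropilin, did not pass (-0.16, -0.82 to 0.50).

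**Figure D3:**
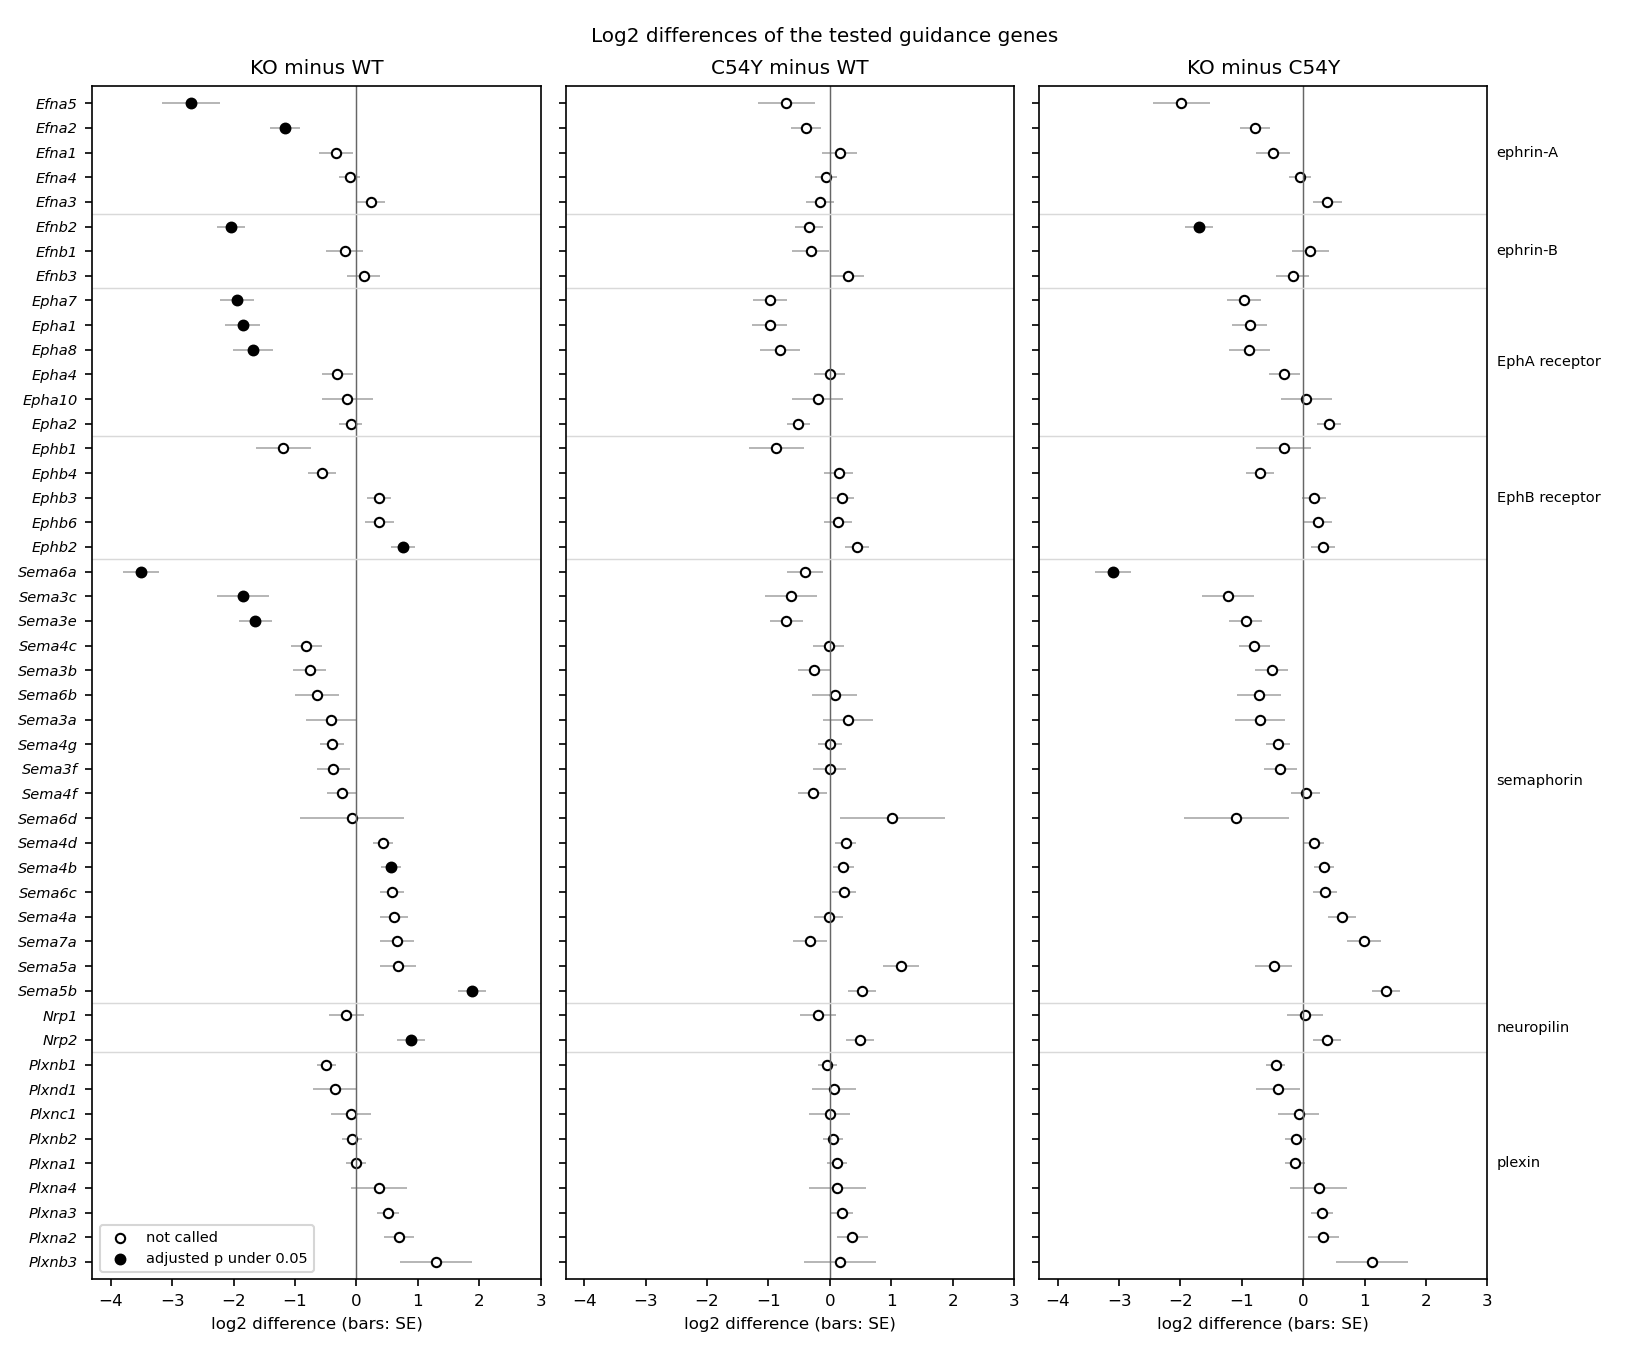
Log2 differences of the 48 tested guidance genes between KO and WT, C54Y and WT, and KO and C54Y (limma with the replicate block, bars show 1 SE), grouped by role. Filled points passed an adjusted p of 0.05: 13 genes between KO and WT, 0 between C54Y and WT, and 2 between KO and C54Y.

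The C54Y against WT comparison asks the same of cells with the point mutation, and it shares its WT libraries with the comparison above. With limma 0 of the 48 genes passed, against 1.36% of all tested genes, and 8 had an unadjusted p under 0.05 (12.3% of all genes). These 8 were Ephb2, Sema5a and Sema5b above WT and Epha1, Epha2, Epha7, Epha8 and Sema3e below it. edgeR called 0 (1.3% of all genes) and DESeq2 called 2, Sema5a higher and Epha1 lower (3.13% of all genes). The median log2 difference of the set was -0.00, as it was over all tested genes. Without 1 KO library the other is fitted by its own term, so both such fits compare the same C54Y and WT libraries. Their differences were therefore unchanged, with -0.98 for Epha1 and 1.16 for Sema5a in each. Without WT replicate 1, Epha2 stood at -0.89 and Sema6d at 2.77, and without C54Y replicate 1, Epha1 stood at -1.50.

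For the genes called in KO, the C54Y differences had these sizes. Sema6a differed from WT by -0.40 (95% interval -1.07 to 0.27), Efnb2 by -0.34 (-0.87 to 0.18) and Efna5 by -0.71 (-1.77 to 0.36). The EphA receptors had intervals that left out 0 before adjustment, with -0.98 for Epha1 (-1.62 to -0.33, limma adjusted p = 0.168), -0.97 for Epha7 (-1.60 to -0.35, 0.16) and -0.81 for Epha8 (-1.55 to -0.07, 0.352). Sema5b stood 0.53 above WT (0.01 to 1.05, limma adjusted p = 0.399). The intervals of Sema3e (-0.71, -1.31 to -0.10, limma adjusted p = 0.313) and Ephb2 (0.45, 0.003 to 0.888, 0.4) also left out 0 before adjustment. Those of Efna2 (-0.38, -0.94 to 0.17), Sema3c (-0.63, -1.59 to 0.34), Nrp2 (0.50, -0.02 to 1.01) and Sema4b (0.22, -0.15 to 0.60) included it. Sema5a, the close relative of Sema5b, had the largest positive difference of the set: 319.7 and 77.6 normalized counts in KO, 315 and 156 in C54Y, and 164 and 57.9 in WT. C54Y was above WT in both replicates (1.16 ± 0.30, limma adjusted p = 0.117), while the groups overlapped.

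The difference between the mutants was tested directly by setting KO against C54Y. Sema6a and Efnb2 fell (2 of 48, 4.17%, against 0.19% of all tested genes), 0 rose, and edgeR called the same 2 genes. For Sema6a, KO lay below C54Y by 3.10 ± 0.30 on the log2 scale (8.59-fold lower, 95% interval -3.78 to -2.43, limma adjusted p = 0.0161), with -3.81 within replicate 1 and -2.40 within replicate 2. For Efnb2, KO lay below C54Y by 1.70 ± 0.23 (3.24-fold lower, -2.22 to -1.17, limma adjusted p = 0.035), and without C54Y replicate 1 the call was lost (adjusted p = 0.236). Efna5 stood at -1.98 (-3.05 to -0.92, limma adjusted p = 0.113) and Sema5b at 1.35 (0.83 to 1.88, 0.0586) in the same comparison, and neither passed. Without KO replicate 1 Efna5 stood at -0.94 and Sema5b at 1.19, and without KO replicate 2 they stood at -3.03 and 1.51. Leaving out a WT library does not change these differences, since the other WT library is then fitted by its own term. DESeq2 called 5 genes (2.96% of all genes), the same 2 with Efna5 and Sema3e lower and Sema5b higher in KO. The receptors Epha1 (-0.87, -1.52 to -0.23), Epha7 (-0.97, -1.60 to -0.35) and Epha8 (-0.88, -1.62 to -0.13) did not pass. The number of calls ran from 1 without C54Y replicate 1 to 18 without KO replicate 2, with 5 without WT replicate 2, 7 without WT replicate 1 and 8 without KO replicate 1.

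**Figure D4:**
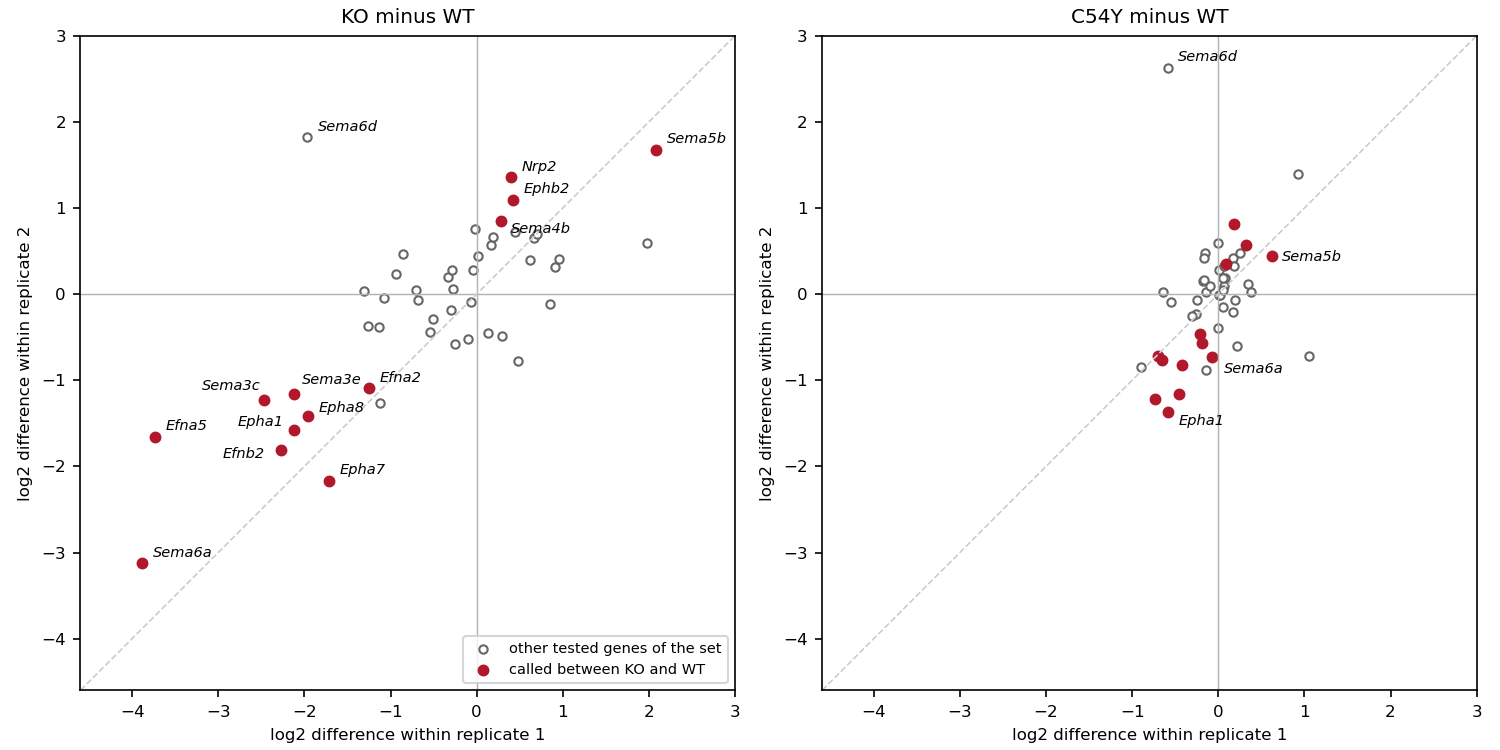
Log2 difference within replicate 1 (horizontal) and within replicate 2 (vertical) for the 48 tested guidance genes, KO minus WT on the left and C54Y minus WT on the right. Filled points are the 13 genes called between KO and WT. On the left Sema6a lies at -3.88 and -3.13, and Sema6d, at the filter, has opposite signs in the replicates.

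Several guidance genes also differed between the replicates within every genotype. Epha4, Epha7, Plxnc1, Sema3e and Sema5a were lower in replicate 2 than in replicate 1 by more than 2-fold in all 3 genotypes (10.4% of the 48 genes, against 17.2% of all tested genes), and 0 were higher by that much (against 8.52%). For Sema3e the differences, replicate 2 minus replicate 1, were -1.79 in KO, -2.86 in C54Y and -2.75 in WT. For Sema6a they were -0.18 in KO, -1.59 in C54Y and -0.94 in WT.

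Genes around these families were counted from 3 further lists, which were also chosen with earlier results of these data known, so the counts are a description. Of 21 tested netrin, Slit, Robo and related guidance genes, Robo4, a roundabout receptor of endothelium, rose (2.04 ± 0.35, limma adjusted p = 0.00663) and Flrt3, an adhesion protein that binds Unc5 receptors, fell (-1.87 ± 0.30, 0.00467) between KO and WT (9.52%, against 16.3% of all tested genes). Robo4 had 203 and 196 normalized counts in KO, 44.2 and 68.8 in C54Y, and 29.9 and 73.3 in WT, so both KO libraries were the highest. Of 25 genes that act with or below plexins and neuropilins, 3 rose and 7 fell between KO and WT (40.0%, against 16.3% of all tested genes). Mras, a small GTPase of the Ras family, had 1501 and 1774 in KO, 351 and 618 in C54Y, and 233 and 347 in WT, again with KO apart. It rose by 2.51 ± 0.20 against WT (limma adjusted p = 0.000313) and by 1.80 against C54Y (0.0161). Mical1, an oxidoreductase that disassembles actin filaments below plexins (1.11, 0.00475), and Dpysl4 (1.26, 0.0072) rose too, while Crmp1 (-1.35, 0.00939), of the same collapsin response mediator family as Dpysl4, fell. The others that fell were Nrcam, Met, Dpysl2, Kdr, Rras and Farp1.

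Of 27 genes that act with or below Eph receptors and ephrins, 3 fell and 1 rose between KO and WT (14.8%, against 16.3% of all tested genes). Grb10, an imprinted adaptor protein, had 2059.6 and 1112 normalized counts in KO, 6885 and 3865 in C54Y, and 7675 and 5985 in WT. KO was far below the other genotypes in both replicates, by -2.16 ± 0.17 against WT (limma adjusted p = 0.000251) and by -1.77 against C54Y (0.0161). Grip1, a scaffold that binds ephrin-B ligands (-1.26, 0.0179), and Vav3 (-1.84, 0.0215), fell, and Tiam1, an exchange factor for Rac (0.56, 0.0445), rose. With TMM scaling, with edgeR or with no filter 0 genes of this list were called higher, so the call of Tiam1 was lost. Without WT replicate 1 the calls were 6 in the plexin list and 1 in the Eph list, and without KO replicate 2 they were 6 in the netrin, Slit and Robo list and 11 in the Eph list. Between C54Y and WT, the netrin gene Ntn1 fell (-0.92 ± 0.18, limma adjusted p = 0.0458) in the first list, a call lost in 4 of the 6 fits with a library left out (either WT or either C54Y library). In the plexin and Eph lists limma called 0 of 25 and 0 of 27 (1.36% of all tested genes), with 2 and 3 at an unadjusted p under 0.05 (12.3%). For these lists edgeR called 0 and 0 (1.3% of all genes) and DESeq2 called 1 and 0 (3.13%). Between KO and C54Y, Mras and Grb10 were the only calls of limma in the 3 lists; in the netrin, Slit and Robo list limma called 0 of 21, 6 had an unadjusted p under 0.05 (15.4% of all tested genes), edgeR called 0 and DESeq2 called 2. The call of Mras was lost without C54Y replicate 1, and the plexin list had 7 calls without WT replicate 1, 3 without WT replicate 2, 2 without KO replicate 1 or C54Y replicate 2 and 9 without KO replicate 2. Without KO replicate 2 the other 2 lists had 6 and 4 calls between KO and C54Y.

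Markers of other cell types were followed in the same libraries. The fibroblast sums were higher in replicate 2 than in replicate 1 in every genotype, and within replicate 1 KO had the lowest sum. The summed normalized count of 24 fibroblast markers was 6983 and 58281 in KO, 16350.2 and 60967 in C54Y, and 19926 and 51747 in WT. These markers were listed to trace the feeder cells, which were not measured on their own. Of 22 tested markers 1 (Mmp2) was called lower in KO (7.41% of all tested genes were lower). Their median log2 difference between KO and WT was -0.50 (-1.19 within replicate 1 and -0.06 within replicate 2), and 18 of 22 were below 0. Vim (16277) and Acta2 (14746) made up much of the sum in KO replicate 2. The defining fibroblast markers Col1a1, Col1a2, Col3a1, Thy1, Postn and Pdgfrb were above 0 in every library, and Lum (in all but C54Y replicate 1) and Fap (in both KO libraries and C54Y replicate 1) were at 0.

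Of the other lists, 11 of 15 tested endoderm markers fell in KO against WT (7.41% of all tested genes fell). Sums over 17 markers were 25012 and 32392 in KO, 26913 and 30014 in C54Y, and 58832 and 39755 in WT. In C54Y 8 of 15 fell against WT (1.36% of all tested genes changed in either direction). Between KO and C54Y limma called 0 of 15 (0.19% of all tested genes), and 6 had an unadjusted p under 0.05 (15.4%). There edgeR called 0 (0.19%) and DESeq2 called 2 (2.96%). The median log2 difference of the endoderm markers was -1.89 between KO and WT, -1.30 between C54Y and WT and -0.16 between KO and C54Y. Of 10 tested neural markers 4 fell and 1 rose in KO against WT (7.41% and 8.9% of all tested genes). The neural sums were 5896 and 8416 in KO, 10133 and 7806 in C54Y, and 11183 and 9020 in WT. Of 10 embryonic stem cell markers 5 rose in KO (8.9% of all tested genes rose), and all 10 were detected in every library. Their sums were 323669 and 534269 in KO, 217201 and 446145 in C54Y, and 187925 and 388140 in WT. The endoderm markers Afp and Ttr were at 0 in KO replicate 2 and both C54Y libraries, and Ttr also in KO replicate 1; of the neural markers, Neurog2 was at 0 in C54Y replicate 1 and Dcx in C54Y replicate 2. The part of feeder, endoderm, neural and stem cells in the differences of the guidance genes was not tested.

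**Figure D5:**
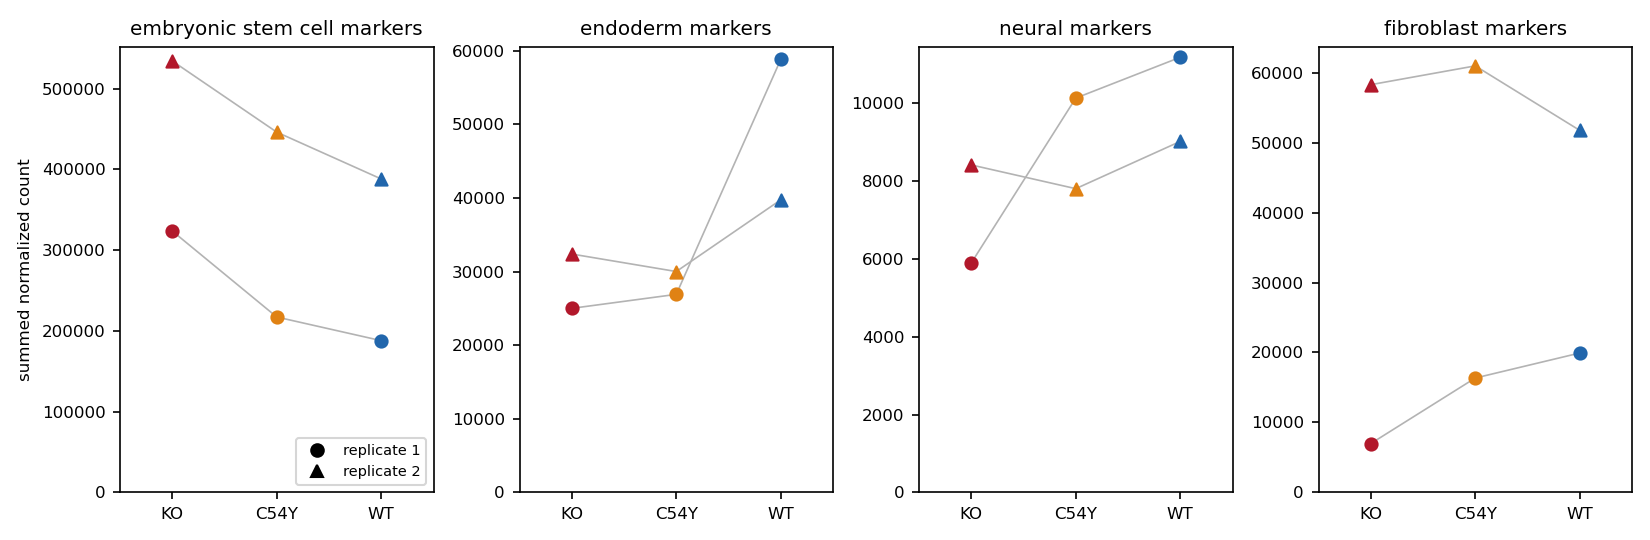
Summed normalized counts of embryonic stem cell, endoderm, neural and fibroblast markers by library. Circles are replicate 1 and triangles replicate 2, and lines join libraries of the same replicate number. The endoderm sum is highest in WT in both replicates, and the fibroblast sum is 51747 to 60967 in replicate 2, against 6983 to 19926 in replicate 1.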

How the data were processed

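RNA was measured by sequencing in 6 libraries (3 genotypes, 2 each). Tools listed in the submitters' processing notes are CASAVA and Trimmomatic, the aligner TopHat2 2.1.0, the counter HTSeq, and DESeq2, with mm9 as the build; annotation, strand setting and filters are not given in the sources used here. The deposited table holds a signal per gene and library, a normalized count made by the authors: reads divided by 1 size factor per library. All values (100%) were whole multiples of the smallest step of their column within 1e-06, so whole reads were recovered. Precision rests on 31774656 to 46772996 reads per library.

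Values were transformed as log2(normalized count + 2), a scale that understates changes of low genes, and fitted with limma 3.58.1 (trend, robust) in R 4.3.3 over all 6 libraries, for 15287 genes with at least 10 in at least 2 libraries, with Benjamini-Hochberg adjustment within each comparison. Replicate number entered as a block, since the comparisons run within replicates and same-numbered libraries deviated together (correlations of 0.895, 0.869 and 0.907 across genes), which leaves 2 residual degrees of freedom. The scripts were tested on simulated data. Alternatives were edgeR 4.0.16 and DESeq2 1.42.0 on the recovered reads, TMM scaling, pseudocounts of 0.5 and 8, no filter or one of 50, no block, and each library left out.

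The genes of the set, the lists and the model were chosen with earlier results of these data known. Values are given in full for Sema6a, every called gene, the gene with the highest mean normalized count in each role, genes changed more than 2-fold in both replicates and those nearest the filter, with up to 4 called genes per further list; others are named by value, after their values were seen. All 53 symbols matched GENCODE M21 and RefSeq GRCm38.p6, and 47 have a promoter there. Gene coordinates on mm9 were not used here, and protein sequences were not used here.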

Additional observations from a re-analysis of the deposited data

Results flagged for a closer look

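The difference of the mutants from WT was itself different between KO and C54Y for 2 guidance genes, by the direct test of KO against C54Y (limma with the replicate block, Benjamini-Hochberg adjustment over all tested genes). Sema6a stood at -3.10 (log2 KO minus C54Y, adjusted p = 0.0161), lower in KO in both replicates. Efnb2 stood at -1.70 (adjusted p = 0.035), also lower in KO in both replicates, and this difference was not called without C54Y replicate 1.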

How the results depend on the processing

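The calls rest on comparing libraries within a replicate number. With no replicate block, 0 guidance genes were called in each comparison, the adjusted p of the 13 genes called between KO and WT became 0.576 to 1, and the counts of the netrin, Slit and Robo list (2 between KO and WT, 1 between C54Y and WT), the plexin list (10 between KO and WT, 1 between KO and C54Y) and the Eph list (4 and 1) all became 0. Median residual SD per gene was 0.201 with the block and 0.593 without it. The fit has 2 residual degrees of freedom. With 1 library of a genotype left out fewer remain, and the lone library is assumed to vary like the others. A call kept or gained in such a fit is therefore not support for a gene.

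With DESeq2 the guidance genes called were 2 between C54Y and WT and 5 between KO and C54Y. The netrin, Slit and Robo list then had 2 calls in each of those comparisons, and the plexin list had 1 and 4. That first list had 4 calls between KO and WT with no filter, and 0 between C54Y and WT with no filter or with a pseudocount of 8.

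With each library left out in turn, calls among the guidance genes ran from 11 to 21 between KO and WT, 0 to 8 between C54Y and WT and 1 to 18 between KO and C54Y. In the same order of comparisons they ran from 2 to 6, 0 to 4 and 0 to 6 in the netrin, Slit and Robo list, from 6 to 13, 0 to 3 and 0 to 9 in the plexin list, and from 1 to 11, 0 to 3 and 1 to 4 in the Eph list. The cause was not tested.

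Over all settings and single guidance genes, 1886 values kept their side of the threshold, 32 lost a call, 75 gained one and 0 changed sign past the threshold. TMM scaling shifted the median of all genes by -0.09 (KO against WT), -0.02 (C54Y against WT) and -0.07 (KO against C54Y), and the calls of Nrp2, Ephb2 and Sema4b between KO and WT were lost under it. Sema6d, Plxnb3 and Ephb1 lie near the filter of 10 and have few reads, which limits the precision of their differences.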
